A study of Mus musculus with 12 samples.

Results

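The comparison described here sets bone marrow stroma of mice with 1 inactive copy of Crebbp against stroma of wild-type mice, and it describes the change gene by gene and by function. Its members are the 4 arrays labelled Crebbp+/- and the 4 labelled wild-type, 8 of the 12 arrays of the study. The other 4 arrays, from Ep300+/- stroma, entered the fit as 1 more genotype and serve as a second point of reference. Every group came from C57BL/6 mice aged 3 to 4 months. Marrow of each was grown for 2 weeks in M5300 medium, the adherent layer was irradiated with 1500 cGy, and the medium was replaced before RNA was taken. No group was left without irradiation. The groups thus differ by label only in genotype, and the labels call the 4 arrays of each biological replicates without saying how many mice stand behind an array or what sex they were. The labels name no cell type for the lost copy, so the design assigns a change in the layer to none.

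Crebbp encodes CBP, a large acetyltransferase that transcription factors recruit to enhancers and promoters, where it acetylates histones and other proteins. It was first found as the partner of the cAMP-responsive factor CREB and also serves STAT, p53, NF-kB, nuclear receptor and many other factors. Its paralogue Ep300 encodes p300, which shares most of its domains. Marrow stroma is a mixed adherent layer of fibroblastic reticular cells, fat cells, endothelial cells and macrophages that supplies blood-forming cells with growth factors and matrix.

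All levels are log2 values on the GCRMA scale, which are relative and are compared here only within a probe set. Array medians ran from 8.025 to 8.269 in wild-type and from 8.152 to 8.434 in Crebbp+/- stroma, and correlations between arrays lay between 0.722 and 0.959 across probe sets, which are not independent. The defining niche chemokine of reticular stroma, Cxcl12, stood between 13.87 and 14.92 on the 8 arrays (1 probe set, the brightest of the gene, which was chosen after its values were seen). No T or NK cell gene of 30 listed was among the genes analysed. Eif2s3y, a Y-linked translation factor gene, was low (2.73 and 2.69) on Crebbp+/- 1 and Crebbp+/- 3. Crebbp+/- 2 and 4 read 8.41 and 9.22 for Eif2s3y, and wild-type arrays read from 8.77 to 10.84. Xist, the RNA of the inactive X chromosome, read 10.11, 10.96, 9.63 and 10.42 in wild-type stroma and 12.19, 11.99, 12.21 and 10.35 in Crebbp+/- stroma, so it was present on every array, those with high Eif2s3y included. The part that the makeup of each layer by sex plays in the results was not tested beyond the fits given with them. Crebbp+/- 4 lay nearer to wild type than the other Crebbp+/- arrays. Over the probe sets called below, the median shift in the direction of the call was 0.952 on Crebbp+/- 4 and from 1.532 to 1.715 on the other 3.

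Crebbp itself was lower on each heterozygous array. Its level was 8.51, 8.45, 8.52 and 8.59 in wild-type stroma and 7.88, 7.67, 7.71 and 7.72 in Crebbp+/- stroma. The Crebbp+/- arrays lay within 0.21 of each other and did not overlap the wild-type arrays (log2 fold change -0.78, standard error 0.199, adjusted p = 0.0372 by limma). With the replicate number as a block, a term for what same-numbered arrays share, the limma adjusted p was 0.0123. Without the block Crebbp passed in 3 of the 12 fits that left out 1 array each, those without Crebbp+/- 4, Ep300+/- 3 or Ep300+/- 4, and missed the threshold in the rest (largest limma adjusted p = 0.129, without wild-type 4).

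Across the 3109 probe sets, 192 (6.18%) passed at a limma adjusted p under 0.05, 156 higher and 36 lower in Crebbp+/- stroma, while 831 reached an unadjusted p under 0.05. With the replicate block 812 (26.1%) passed, 544 higher and 268 lower, and these held all 192. The block changed the standard error and not the fold change, with a median standard error of 0.269 against 0.368 without it. The labels do not say that same-numbered arrays are pairs. Genes with several probe sets are counted by the one of highest mean level. In those terms 103 of 1974 genes (5.22%) rose and 28 (1.42%) fell without the block, and 376 (19.0%) rose and 187 (9.47%) fell with it. The counts given for each list below stand beside these shares over all genes. The fold changes were shifted upward as a whole, with a median of 0.243 over probe sets and 0.281 over genes. Quantile normalization brought the probe set median to 0.0225 and gave 120 higher and 72 lower, and median centring gave 125 higher and 72 lower, so the share of calls that were higher went from 81.25% to 62.5% and 63.5%. The 4 Crebbp+/- arrays lay wholly above the 4 wild-type arrays for 323 probe sets (10.4%) and wholly below for 263 (8.46%). Of these, 140 and 36 passed without the block and 269 and 184 with it, so each probe set that fell without the block was separated on all 8 arrays.

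Dropping 1 array changed the count of calls more than 1.5 times in 8 of 12 cases. Of the wild-type arrays, dropping number 2 gave 30, number 3 gave 48 and number 4 gave 5. Of the heterozygous arrays, dropping number 1 gave 9, number 2 gave 7, number 3 gave 55 and number 4 gave 383. Dropping Ep300+/- 1 gave 125. With the block the count was 75, 0 and 434 without replicate number 1, 2 and 4. The 0 stood beside 838 probe sets with an unadjusted limma p under 0.05 in that fit. Without Crebbp+/- 1 and 3, the arrays low in Eif2s3y, 4 probe sets passed, yet the 192 kept their sign, 190 of them had an unadjusted p under 0.05, and their fold changes were 0.893 of the full value in the median. In the plot of every probe set the calls without the block fill the outer edge of each arm, and the plot of calls by fit sets these counts side by side.

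**Figure D1:**
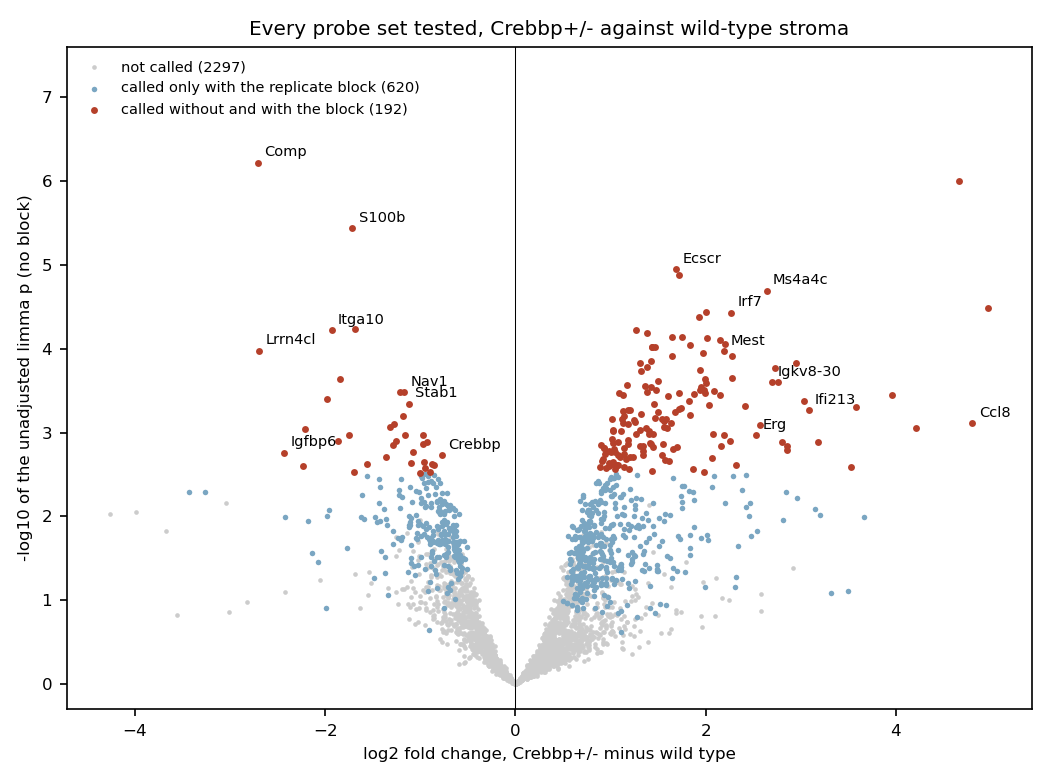
Each point is 1 of 3109 probe sets, with the log2 fold change of Crebbp+/- over wild type on the x axis and the -log10 of the unadjusted limma p on the y axis. Red points (192) passed without and with the replicate block and blue points (620) only with it, and Comp and S100b stand highest among the genes that fell.

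**Figure D2:**
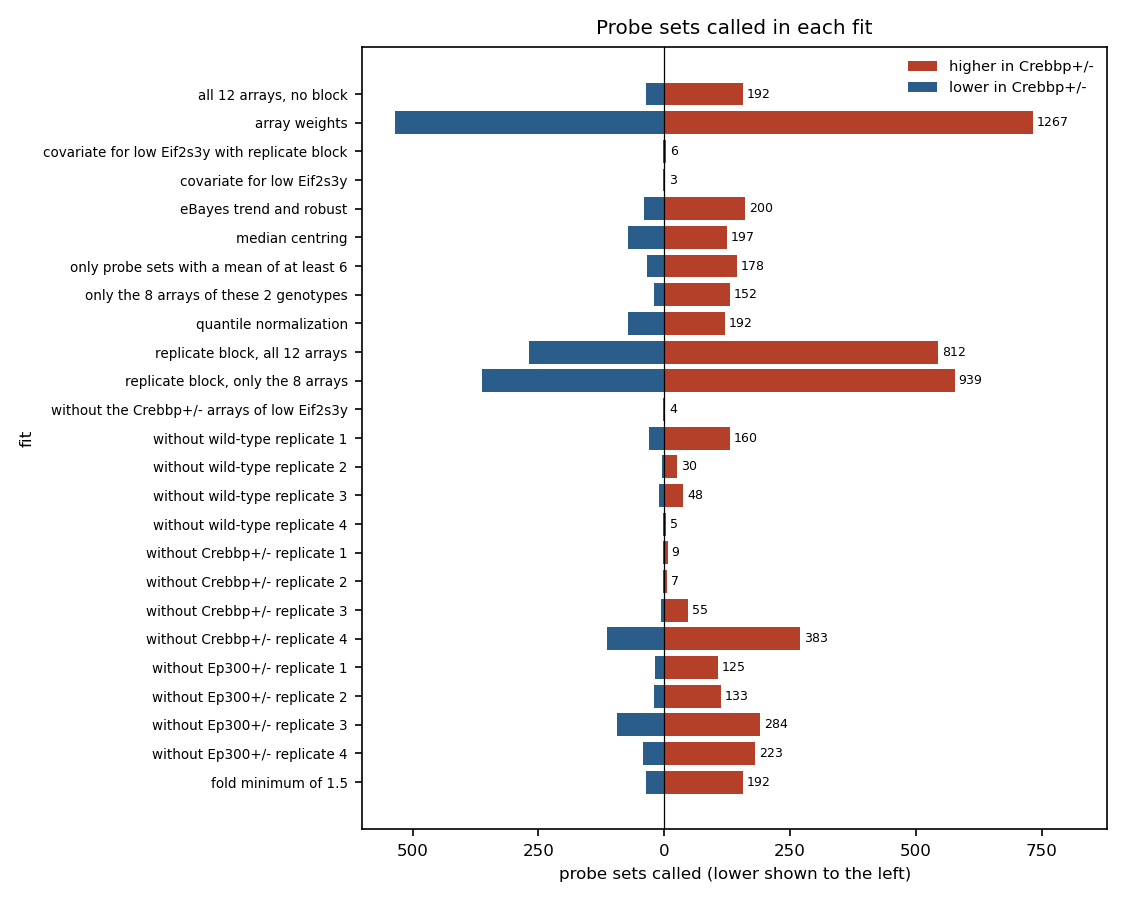
Bars give the probe sets that passed at a limma adjusted p under 0.05 in each fit, higher in Crebbp+/- to the right and lower to the left, with the total beside each. Totals run from 3 with a covariate for low Eif2s3y to 1267 with array weights.

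Comp had the largest fall among the called genes, and it belongs to the list of cartilage and tendon genes. Of the 9 measured genes of that list, 5 fell and 0 rose without the block, and 6 fell with it, with a list median of -1.56 against 0.28 over all genes. Comp, a pentameric glycoprotein of cartilage and tendon matrix, read 9.71, 9.899, 10.94 and 10.15 in wild-type stroma and 7.15, 7.26, 7.71 and 7.73 in Crebbp+/- stroma (log2 fold change -2.71, standard error 0.296, adjusted p = 0.00155 by limma), so the lowest wild-type array stood 1.98 above the highest Crebbp+/- array. S100b, a calcium-binding protein of chondrocytes and glia, read 7.19, 7.01, 7.02 and 7.55 in wild-type stroma and 5.503, 5.33, 5.71 and 5.37 in Crebbp+/- stroma (log2 fold change -1.71, standard error 0.22, adjusted p = 0.00375 by limma). Its groups were as clearly apart, with Crebbp+/- 4 the second lowest array. Itga10, the collagen-binding integrin subunit of chondrocytes, fell 3.82-fold (log2 fold change -1.93, standard error 0.33, adjusted p = 0.0129 by limma). Smoc2, a matrix protein of the SPARC family, fell 3.60-fold, and Clec11a, a secreted growth factor for bone-forming cells, fell 2.94-fold. Matn2, a matrix adaptor protein, had a log2 fold change of -0.80 and passed only with the block. Fmod, Prg4 and Col2a1 did not pass in either fit (-0.62, -1.22 and 0.88). In bulk layers such as these, fewer cells of a type and less RNA per cell cannot be told apart.

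The calls of this list depended on the arrays in the fit. Between 2 and 6 of the 9 passed in the 12 fits that left out 1 array each, with 2 without wild-type 4, Crebbp+/- 1 or Crebbp+/- 2 and 3 without wild-type 2. Comp and S100b passed in each of them and also without the arrays low in Eif2s3y (limma adjusted p = 0.0366 and 0.0480).

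A second group that fell carries genes of mesothelium, the flat lining of body cavities, and of epithelium. Of 6 measured, 4 fell with and without the block, and the list median was -1.93. Lrrn4cl, a membrane protein with leucine-rich repeats, read 7.84, 8.200, 8.98 and 7.598 in wild-type stroma and 5.05, 5.14, 5.05 and 6.62 in Crebbp+/- stroma (log2 fold change -2.69, standard error 0.49, adjusted p = 0.0133 by limma). Crebbp+/- 1, 2 and 3 lay within 0.092 of each other, and Crebbp+/- 4 lay between them and the wild-type arrays. Igfbp6, a binding protein that prefers insulin-like growth factor 2, read 8.38, 9.01, 10.16 and 7.99 in wild-type stroma and 5.75, 6.67, 5.81 and 7.59 in Crebbp+/- stroma (log2 fold change -2.43, standard error 0.62, adjusted p = 0.0359 by limma), with wild-type 3 highest and only 0.40 between the nearest arrays of the groups. The water channel Aqp1 fell 3.95-fold and the annexin Anxa8, a phospholipid-binding protein, fell 3.65-fold. Aldh1a2 and Uchl1 did not pass (0.37 and 0.17). None of the 4 passed without wild-type 4, Crebbp+/- 1 or Crebbp+/- 2, and 1, 2 and 1 passed without wild-type 2, wild-type 3 and Crebbp+/- 3.

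Single bone genes and homeobox factors fell. Of 8 osteoblast genes 1 fell without the block and 2 with it, and the list median was -0.60 against 0.28 over all genes. Of 5 Hox and homeobox genes 1 fell without the block, and the median was -0.51. Among all genes 1.42% fell without the block and 9.47% with it. Without the block, neither list held a call when wild-type 2, 3 or 4 or Crebbp+/- 1, 2 or 3 was left out. Ibsp, the bone sialoprotein of mineralizing matrix, read 11.82, 12.76, 11.55 and 11.78 in wild-type stroma and 9.64, 9.94, 10.300 and 11.03 in Crebbp+/- stroma (log2 fold change -1.75, standard error 0.42, adjusted p = 0.0293 by limma), and it was the 1 of 8 osteoblast genes to pass without the block. Alpl, the phosphatase that frees phosphate for mineral, passed only with it (log2 fold change -1.03, adjusted p = 0.0944 by limma without and 0.0322 with the block). Hoxc8, a homeobox factor that marks position along the body axis, fell 2.57-fold (log2 fold change -1.36, standard error 0.35, adjusted p = 0.0382 by limma). Prrx2, a homeobox factor of limb and connective tissue mesenchyme, had log2 fold change -1.43, adjusted p = 0.0602 by limma without and 0.0219 with the block. With both factors counted, 2 of 5 measured Hox and homeobox genes fell with the block and 0 rose.

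**Figure D3:**
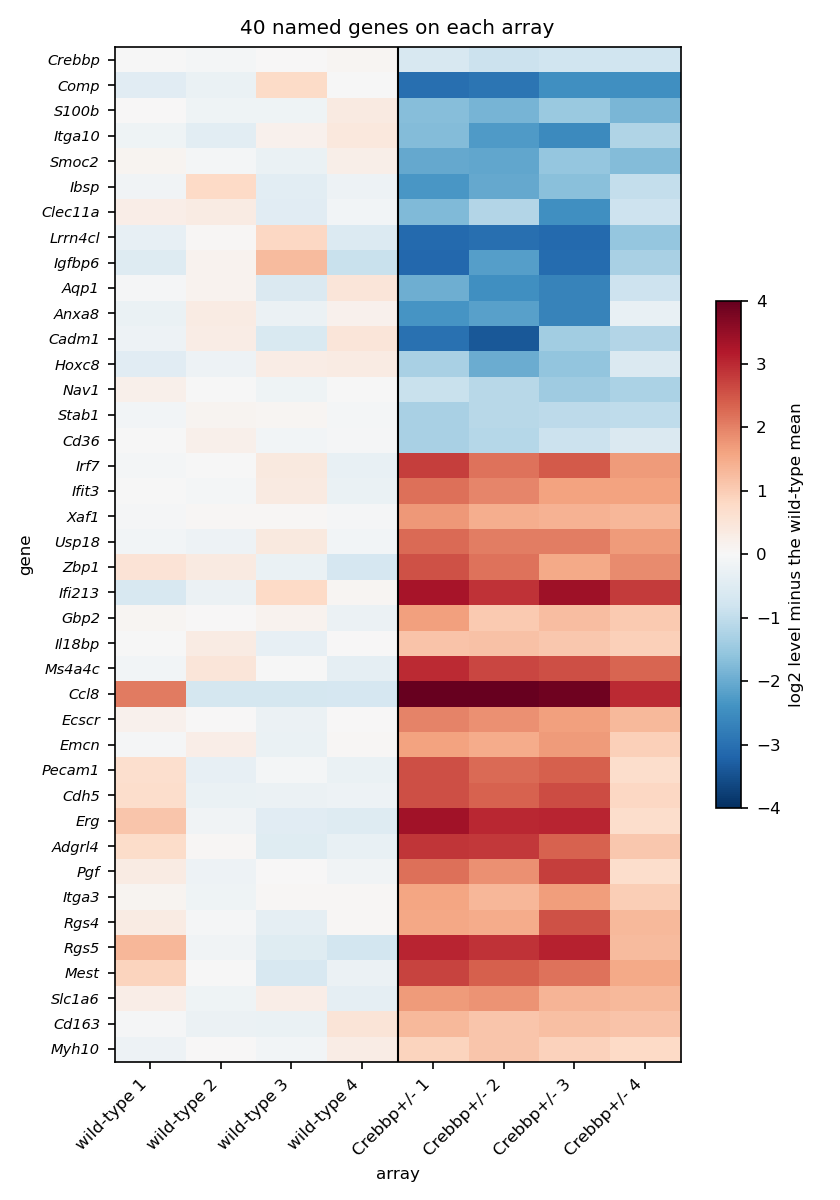
Colour gives the log2 level of 40 named genes on each of the 8 arrays minus the wild-type mean, red for higher and blue for lower, with the scale ending at 4 in each direction, beyond which Ccl8 lies. Rows from Comp to Cd36 are blue on the Crebbp+/- arrays and rows from Irf7 down are red, with paler cells on Crebbp+/- 4 and a red cell for Ccl8 on wild-type 1.

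The interferon response list, genes that interferons induce, held the most genes that rose without the block of the 56 lists. Of 31 measured, 19 rose, 0 fell and 12 did not pass, and with the block 27 rose. The median log2 fold change was 1.30, and each of the 31 was positive. After quantile normalization 12 of the 31 rose, and after median centring 14 did. Irf7, the factor that amplifies type I interferon production, read 8.300, 8.38, 8.79 and 8.11 in wild-type stroma and 11.15, 10.56, 10.84 and 10.098 in Crebbp+/- stroma (log2 fold change 2.27, standard error 0.37, adjusted p = 0.0128 by limma). Usp18, the protease that strips ISG15 from proteins, read 8.14, 8.03, 8.63 and 8.14 in wild-type stroma and 10.500, 10.27, 10.29 and 9.95 in Crebbp+/- stroma, with 1.32 between the nearest arrays of the groups. Among effectors, Rsad2 (viperin, which makes a chain-terminating nucleotide) had a log2 fold change of 2.26, Ifit3 of 1.84 and Xaf1 of 1.47. The oligoadenylate synthetase relatives Oasl1, Oas3, Oasl2, Oas2 and Oas1a rose by 2.95, 1.46, 1.32, 0.95 and 0.93 by name, of which those other than Oasl1 were chosen after their values were seen. Oasl1 stood between 4.12 and 4.67 in wild type, in the range where array background sets the level, which leaves the size of the difference uncertain. Ifitm1, Ifitm3, Ifi27l2a and Irf9 did not pass in either fit (1.12, 1.27, 1.56 and 0.50).

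The interferon list mean over its 31 genes, set against the wild-type mean, was 1.60, 1.40, 1.42 and 0.96 on Crebbp+/- 1 to 4 and from -0.22 to 0.18 on the wild-type arrays. The groups were apart on every array, and Crebbp+/- 4 was the nearest to wild type. No gene of the list passed without wild-type 4, Crebbp+/- 1 or Crebbp+/- 2, and 4, 6, 7, 10, 12 and 11 passed without wild-type 2, wild-type 3, Crebbp+/- 3, wild-type 1, Ep300+/- 1 and Ep300+/- 2. Without the 2 arrays low in Eif2s3y none passed either, and the median was 1.21.

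The promoters of these genes can carry the interferon-stimulated response element, the site bound by the STAT and IRF factor complex. The 4 windows below are shown because they hold that motif, searched as GAAANNGAA on both strands in the 250 bases before each gene's start, beside genes that rose. They come from RefSeq promoters of GRCm38.p6, are written 5′ to 3′ on the gene's strand, and have the matches in capitals.
Ifit3, chr19:34583334-34583475 (+ strand): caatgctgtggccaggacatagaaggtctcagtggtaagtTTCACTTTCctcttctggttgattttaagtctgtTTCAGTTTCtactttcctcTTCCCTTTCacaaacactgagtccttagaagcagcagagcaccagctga
Ifit1, chr19:34640740-34640853 (+ strand): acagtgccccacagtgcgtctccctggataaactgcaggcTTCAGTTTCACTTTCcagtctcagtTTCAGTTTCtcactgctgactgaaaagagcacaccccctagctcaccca
Oas3, chr5:120777680-120777774 (- strand): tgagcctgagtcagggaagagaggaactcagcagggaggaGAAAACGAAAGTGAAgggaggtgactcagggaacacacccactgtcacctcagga
Rsad2, chr12:26456523-26456611 (- strand): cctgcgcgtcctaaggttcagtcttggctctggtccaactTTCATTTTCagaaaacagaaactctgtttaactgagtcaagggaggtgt
Ifit3 and Ifit1 hold 3 matches each, Oas3 holds 2 that overlap and Rsad2 holds 1. The last match of each ends 93, 75, 60 and 110 bases before the start, in that order. Over all 27025 genes with a window 8.18% held the motif, and over the 1573 tested genes with one 9.47% did. Among genes that rose without the block it was 25.6% (21 of 82), and among those that fell 4.35% (1 of 23, Nav1). Outside the interferon list 15 of 67 genes that rose held it (22.4%), among them Gbp2, Igtp, Irgm1, Ifih1, Ifi213, Slfn5 and Trim25, and also Erg, Itga3 and Rasgrp3. A match describes the letters of a window and shows no binding.

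The cAMP response element, the site of the CREB factors that CBP was named for, was also searched. The palindrome TGACGTCA stood in 2.86% of tested genes with a window, in 1.22% of those that rose (1 of 82, Mcam) and in 0 of 23 that fell. Its half-site TGACG stood in 29.8% of tested genes, in 15.9% of those that rose and in 13.0% of those that fell. Over all 27025 genes with a window the palindrome stood in 1.77% and the half-site in 19.8%, both under the tested genes. These shares describe the windows only.

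The GTPases that attack vacuoles of intracellular pathogens rose with the interferon genes. Of 10 measured guanylate-binding and immunity-related GTPases, 5 rose without the block and 10 with it, and 0 fell. After quantile normalization only 1 of the 10 rose, and after median centring only 1 did. Gbp2 read 9.78, 9.73, 9.85 and 9.47 in wild-type stroma and 11.34, 10.74, 10.94 and 10.76 in Crebbp+/- stroma (log2 fold change 1.24, standard error 0.32, adjusted p = 0.0382 by limma), with no overlap between the groups. Igtp, Ifi47 and Irgm1 rose by 1.02, 1.03 and 0.91. Gbp6 had a larger fold change that passed only with the block (log2 fold change 2.39, adjusted p = 0.0629 by limma without and 0.00701 with the block), with Crebbp+/- 4 at 5.56 against wild-type arrays up to 5.20. Without the block, none of the 10 passed when any 1 wild-type array, or Crebbp+/- 1, 2 or 3, was left out, and 1 and 2 passed without Ep300+/- 1 and 2.

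Sensors of foreign nucleic acid rose as well. Of 10 measured, 6 rose without the block and 8 with it, 0 fell, and the median was 1.02. After quantile normalization 4 rose, and after median centring 4 did. Zbp1, a receptor for left-handed nucleic acid that can start necroptosis, read 7.51, 7.33, 6.699 and 6.29 in wild-type stroma and 9.51, 9.13, 8.47 and 8.86 in Crebbp+/- stroma (log2 fold change 2.04, standard error 0.44, adjusted p = 0.0219 by limma). Ifih1, the RNA helicase MDA5, rose 2.27-fold (log2 fold change 1.18, standard error 0.29, adjusted p = 0.0331 by limma), and the p200 family members Ifi209 and Ifi213 rose by 1.25 and 3.08. Tlr8 and Ifi204 did not pass in either fit (0.34 and 0.55). Ddx60, a helicase that aids RNA sensing and stood outside the list, rose by 1.48 on its probe set of highest mean. A second probe set of Ddx60 (1.72) was 1 of 5 that passed in each fit that left out 1 array. Of the arrays compared, it reached 6.6439 only on Crebbp+/- arrays, so its repeated calls are no separate support. No sensor passed without wild-type 2, wild-type 4, Crebbp+/- 1 or Crebbp+/- 2, and 3, 1, 1, 3 and 3 passed without wild-type 1, wild-type 3, Crebbp+/- 3, Ep300+/- 1 and Ep300+/- 2.

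Ubiquitin ligases, TRIM proteins and ADP-ribosyltransferases were tested as a list of 41. Without the block 5 rose and 1 fell, and with it 20 rose and 4 fell. Herc6, the ligase that attaches ISG15 in mice, read 7.28, 7.43, 7.71 and 7.49 in wild-type stroma and 9.09, 8.81, 8.903 and 8.64 in Crebbp+/- stroma (log2 fold change 1.38, standard error 0.26, adjusted p = 0.0159 by limma), Parp9 rose by 1.05, and Trim25, which ubiquitinates the RNA sensor RIG-I, rose by 1.62. Usp18 and Trim12c (1.02, chosen after its value was seen) were the others that rose. Asb4, a subunit of a ubiquitin ligase that is abundant in placenta and vessels, fell by 0.95 on the log2 scale, and Herc4 passed only with the block at -1.59. A further probe set of Asb4 (-0.52) passed in neither fit. Of the genes named here, Usp18, Herc6 and Parp9 also belong to the interferon list. No member passed without wild-type 4, Crebbp+/- 1 or Crebbp+/- 2.

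Of 7 genes of MHC and antigen presentation, 1 rose without the block and 3 with it, 0 fell, each fold change was positive and the median was 0.61. After quantile normalization 0 passed, and after median centring 1 did. H2-T24, a nonclassical class I gene, read 5.78, 5.78, 6.94 and 6.53 in wild-type stroma and 7.68, 8.05, 7.58 and 7.33 in Crebbp+/- stroma (log2 fold change 1.402, standard error 0.33, adjusted p = 0.0284 by limma) and was the one that passed without the block. The immunoproteasome subunit Psmb8 (0.64) and the peptide-loading factor Tapbp (0.94) passed only with it. H2-K1, H2-D1 and B2m had fold changes of 0.47, 0.51 and 0.61 that did not pass in either fit. Of 3 measured Schlafen genes, which restrict growth and viral translation, Slfn5 rose 3.25-fold (log2 fold change 1.698, standard error 0.42, adjusted p = 0.0338 by limma) and Slfn8 passed with the block (1.04).

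Among secreted signals, 1 of 14 chemokines and 1 of 20 cytokines and receptors passed without the block, both higher. These shares are near the 5.22% of all genes that rose without it. Il18bp, the soluble decoy that neutralizes interleukin 18, read 8.54, 8.89, 8.26 and 8.598 in wild-type stroma and 9.72, 9.75, 9.65 and 9.54 in Crebbp+/- stroma (log2 fold change 1.09, standard error 0.23, adjusted p = 0.0184 by limma), with no overlap between the groups. The monocyte chemokine Ccl8 read 6.42, 3.66, 3.66 and 3.68 in wild-type stroma and 10.35, 10.703, 8.24 and 7.35 in Crebbp+/- stroma (log2 fold change 4.81, standard error 1.09, adjusted p = 0.0261 by limma). Its wild-type arrays other than 1 sat near the array background, so its size is uncertain. Cxcl13, the B cell chemokine, passed only with the block (log2 fold change 2.96, adjusted p = 0.0705 by limma without and 0.0222 with the block). Il1b was uneven across arrays, with 5.84, 5.33, 6.67 and 4.49 in wild-type stroma and 10.03, 7.202, 13.83 and 5.24 in Crebbp+/- stroma, and passed only with the block at an adjusted p of 0.0496. Of the 8 arrays compared, Crebbp+/- 3 stood far above the rest for Il1b and for the phosphatase Dusp2 (12.53 against 3.00 to 8.33 on the other 7 arrays). The chemokine list mean, set against the wild-type mean, was 2.76 on Crebbp+/- 3 and 3.15 on Ep300+/- 3. The Il1b difference from Ep300+/- stroma was -0.39 (limma adjusted p = 0.940).

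Endothelial genes formed the group with the highest median among lists of 5 or more measured genes (1.78 over 32 genes). Without the block 15 rose and 0 fell, and with it 27 rose and 1, Esm1, fell (-1.34). After quantile normalization 16 rose, and after median centring 16 did. Ecscr, a regulator of endothelial migration and survival, read 8.27, 8.11, 7.87 and 8.12 in wild-type stroma and 10.06, 9.92, 9.75 and 9.401 in Crebbp+/- stroma (log2 fold change 1.69, standard error 0.24, adjusted p = 0.00827 by limma) and passed in each fit that left out 1 array. Emcn, the sialomucin of marrow sinusoids and capillaries, read 10.43, 10.75, 10.21 and 10.51 in wild-type stroma and 12.08, 11.97, 12.19 and 11.43 in Crebbp+/- stroma (log2 fold change 1.44, standard error 0.26, adjusted p = 0.0129 by limma), and its groups did not overlap. Myct1, Ptprb (the phosphatase that restrains TIE2), Mmrn2 and Adgrl4 rose by 1.93, 2.16, 1.997 and 2.28.

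For many of the other endothelial genes the groups touched. Cdh5, the cadherin of endothelial junctions, read 8.91, 7.95, 7.98 and 8.02 in wild-type stroma and 10.78, 10.58, 10.82 and 9.04 in Crebbp+/- stroma (log2 fold change 2.09, standard error 0.43, adjusted p = 0.0184 by limma), with wild-type 1 and Crebbp+/- 4 only 0.13 apart. Erg, an ETS factor that maintains endothelial identity, read 5.33, 4.09, 3.77 and 3.71 in wild-type stroma and 7.58, 7.24, 7.28 and 4.91 in Crebbp+/- stroma, and here wild-type 1 lay above Crebbp+/- 4. Tie1, Robo4 and Apln overlapped in the same way. The list mean was 0.88 on wild-type 1 and 0.29 on Crebbp+/- 4, against -0.38 to -0.21 on the other wild-type and 1.95 to 2.21 on the other Crebbp+/- arrays. Without Crebbp+/- 4, 27 of the 32 rose, and without wild-type 1, 22 did. The count was 1 without wild-type 4, Crebbp+/- 1 or Crebbp+/- 2, 4 without wild-type 2 or 3, and 6 without Crebbp+/- 3. Without the arrays low in Eif2s3y none passed, and the median was 1.28.

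Single genes of lymphatic and sinusoidal endothelium went different ways. Stab2, the hyaluronan scavenger receptor of sinusoids, had a log2 fold change of 1.87 and passed only with the block, as did Lyve1 and Flt4 (1.499 and 1.45). These 3 genes were chosen after their values were seen. Stab1, a related scavenger receptor of sinusoidal cells and macrophages that stood in no list, fell on every heterozygous array, with 12.91, 13.14, 13.12 and 12.97 in wild-type stroma and 11.73, 11.91, 12.003 and 12.03 in Crebbp+/- stroma (log2 fold change -1.12, standard error 0.24, adjusted p = 0.0214 by limma).

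Genes of mural cells, the pericytes and smooth muscle that wrap vessels, rose in part. Of 8 measured, 3 rose without the block and 5 with it. Rgs5, a pericyte regulator of G protein signals, read 11.78, 10.31, 9.97 and 9.71 in wild-type stroma and 13.49, 13.35, 13.53 and 11.69 in Crebbp+/- stroma (log2 fold change 2.57, standard error 0.59, adjusted p = 0.0267 by limma), and Crebbp+/- 4 lay below wild-type 1. On its other probe sets, with wild-type levels down to 3.70, the fold changes were 3.96, 4.21 and 3.59 and the groups did not overlap. Rgs4 read 6.58, 6.19, 5.89 and 6.303 in wild-type stroma and 7.79, 7.71, 8.799 and 7.54 in Crebbp+/- stroma (log2 fold change 1.72, standard error 0.35, adjusted p = 0.0184 by limma) with no overlap, and Mcam rose by 1.64 with overlap. Notch3, the pericyte Notch receptor, passed with the block (0.93), while Cnn1, Tpm2 and Sncg did not pass in either fit (-0.13, -0.10 and 0.16). None of the list passed without wild-type 2, 3 or 4 or Crebbp+/- 1, 2 or 3.

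**Figure D4:**
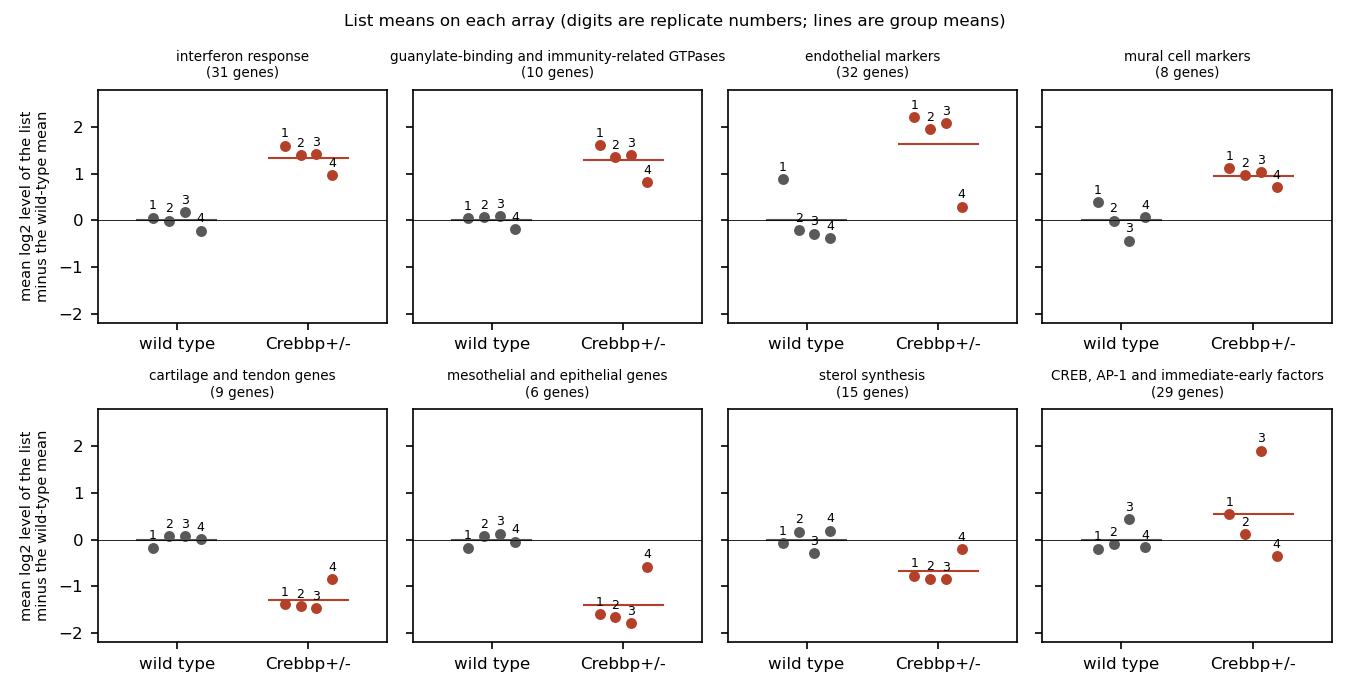
Each panel shows, for 1 gene list, the mean log2 level of its measured genes on each array minus the wild-type mean, with wild-type arrays in grey, Crebbp+/- arrays in red, replicate numbers as digits and group means as lines. The interferon groups are apart on all 8 arrays, whereas Crebbp+/- 4 lies at 0.29 for endothelial genes, below wild-type 1 at 0.88.

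Growth factors for vessels and the matrix under them followed. Of 13 measured angiogenic factors and receptors, 3 rose and 0 fell without the block, and 7 rose and 1 fell with it. Pgf, a ligand of the receptor FLT1, read 7.85, 7.300, 7.53 and 7.39 in wild-type stroma and 9.72, 9.35, 10.28 and 8.23 in Crebbp+/- stroma (log2 fold change 1.88, standard error 0.39, adjusted p = 0.0184 by limma). Angptl4, a secreted inhibitor of lipoprotein lipase, rose 2.21-fold (log2 fold change 1.14, standard error 0.31, adjusted p = 0.0442 by limma), and Apln, the ligand of the apelin receptor, rose by 1.84. Pdgfb, which recruits pericytes, passed only with the block (1.76). Edn1, which encodes the vasoconstrictor endothelin and stood outside the lists, rose by 1.65. In the basement membrane list Agrn, a heparan sulfate proteoglycan, read 8.77, 8.58, 8.85 and 8.45 in wild-type stroma and 9.91, 10.03, 9.85 and 9.35 in Crebbp+/- stroma (log2 fold change 1.12, standard error 0.25, adjusted p = 0.0251 by limma), the 1 of 8 to pass without the block. With it Col4a1, Col18a1 and Tinagl1 also rose (0.596, 0.77 and 0.83), as did Nid1 (0.71), and Lama2 fell (-0.93). Edn1, Nid1 and Lama2 were chosen after their values were seen.

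Of 9 measured collagens 0 passed without the block, with a median of 0.596, 7 positive values, fold changes between -1.42 and 0.88 and an unadjusted limma p under 0.05 for 5 of them, and with it 3 rose and 2 fell, among them Col8a1 (0.74) and Col1a2 (-1.42). Of 25 matrix glycoproteins and proteoglycans the 2 that passed were Comp and Smoc2, both lower. With the block Thbs1, an inhibitor of vessel growth that also activates TGF-beta, rose (0.69) and the glypican Gpc1 fell (-0.81). Among 30 proteases and inhibitors Adamtsl5, a fibrillin-binding relative of the ADAMTS proteases without the protease domain, fell 2.27-fold (log2 fold change -1.18, standard error 0.26, adjusted p = 0.0244 by limma). Adam12 and Adamts4 rose and Adam33 fell only with the block. A further probe set of Adam33 (-0.73) passed in neither fit.

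Of 9 genes in the integrin list, 1 rose and 2 fell without the block. Itga3, the subunit of a laminin receptor, read 6.63, 6.34, 6.56 and 6.56 in wild-type stroma and 8.11, 7.84, 8.18 and 7.498 in Crebbp+/- stroma (log2 fold change 1.38, standard error 0.24, adjusted p = 0.0129 by limma), while Itga10 fell. Itgbl1, a secreted protein with integrin-like repeats and no subunit of an integrin, fell 2.43-fold (log2 fold change -1.28, standard error 0.29, adjusted p = 0.0264 by limma). With the block 4 of the 9 rose and 2 fell, among them Itgb3 at 1.200. Of 18 cadherins and other adhesion molecules 5 rose and 1 fell without the block, and 9 rose and 2 fell with it. F11r, a junctional adhesion molecule, read 7.101, 7.11, 6.77 and 7.45 in wild-type stroma and 8.82, 8.72, 8.62 and 7.73 in Crebbp+/- stroma (log2 fold change 1.36, standard error 0.27, adjusted p = 0.0184 by limma), and Esam rose by 1.83. Cadm1, an immunoglobulin-type adhesion molecule, read 7.03, 7.53, 6.62 and 7.72 in wild-type stroma and 4.25, 3.85, 5.83 and 6.04 in Crebbp+/- stroma (log2 fold change -2.23, standard error 0.595, adjusted p = 0.0439 by limma), with Crebbp+/- 3 and 4 nearer to wild type than 1 and 2. No member of the adhesion list passed without wild-type 2, 3 or 4 or Crebbp+/- 1, 2 or 3.

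Of 27 Fox, Sox, Gata, Klf, Ets and related factors, 4 rose without the block (Irf7, which the interferon list also holds, Klf7, Bcl6b and Erg), 10 with it, and 0 fell, where 5.22% and 19.0% of all genes rose. Klf7, a factor best known from neurons, read 8.27, 7.599, 7.86 and 8.15 in wild-type stroma and 8.99, 8.77, 9.35 and 8.72 in Crebbp+/- stroma (log2 fold change 0.99, standard error 0.25, adjusted p = 0.0353 by limma). A further probe set of Klf7 (0.62) passed in neither fit. Bcl6b, a repressor abundant in endothelium, rose by 1.57, and Sox18, a factor of vascular and lymphatic endothelium, passed only with the block (2.43). Bcl6b, Erg and Sox18 share the pattern in which wild-type 1 is high and Crebbp+/- 4 is low.

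The factors and early genes of cAMP and growth signals gave 1 call. Of 29 genes in the CREB, AP-1 and immediate-early list 1 passed without the block, and it was Crebbp itself. With the block Pde4b, Dusp5 and Dusp2 rose (1.54, 1.699 and 3.32), and Atf5, a stress-responsive factor, fell (-0.73). The list mean was 1.91 on Crebbp+/- 3 and 0.55, 0.12 and -0.35 on Crebbp+/- 1, 2 and 4, against -0.19 to 0.45 in wild type. On Ep300+/- 1 to 4 it was 0.17, 0.91, 1.97 and 0.05, so the high level was not confined to Crebbp+/- 3. In each genotype replicate number 3 was the highest array for this list. Pde4b, which breaks down cAMP, read 7.11, 7.53, 7.42 and 7.01 in wild-type stroma and 9.21, 8.04, 10.43 and 7.54 in Crebbp+/- stroma, with Crebbp+/- 3 highest and Crebbp+/- 4 only just above wild-type 2. The median was 0.60 on all arrays against 0.28 over all genes, 0.96 without Crebbp+/- 4 and -0.18 without Crebbp+/- 1 and 3. Of 26 chromatin regulators and histones Crebbp was again the 1 that passed, and Kdm7a, Arid5b, Med1 and Smarcc1 rose only with the block (1.29, 0.77, 0.78 and 0.58, with the last 2 chosen after their values were seen).

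Genes of cholesterol synthesis passed only with the block. No member of 15 measured passed without the block by limma (9 had an unadjusted p under 0.05), 9 fell with it, and the 15 fold changes were negative with a median of -0.64 against 0.28 over all genes. Lss, which closes the ring of lanosterol, read 6.75, 7.54, 6.95 and 7.28 in wild-type stroma and 6.32, 5.92, 5.94 and 6.57 in Crebbp+/- stroma (log2 fold change -0.94, adjusted p = 0.0504 by limma without and 0.016 with the block). Cyp51, which demethylates lanosterol, read 9.9999, 10.202, 10.04 and 10.501 in wild-type stroma and 9.07, 8.74, 9.23 and 9.86 in Crebbp+/- stroma (log2 fold change -0.96, adjusted p = 0.0746 by limma without and 0.0164 with the block). For both the Crebbp+/- arrays lay below the wild-type arrays, with Crebbp+/- 4 the nearest. Idi1 and Sqle had log2 fold changes of -0.83 and -0.82, and Hsd17b7, at -0.04, the smallest. The list mean was -0.77, -0.84, -0.84 and -0.20 on Crebbp+/- 1 to 4 and reached -0.29 on wild-type 3. Without the block, 4 fell when Crebbp+/- 4 was left out, 2 without Ep300+/- 3, 1 without wild-type 1 or Ep300+/- 4, and 0 in each of the other 8 fits that left out 1 array.

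In the list of fatty acid synthesis and lipid handling, 1 of 11 genes fell without the block and 3 with it. Cd36, the scavenger receptor that takes up fatty acids and oxidized lipoprotein, read 13.98, 14.19, 13.88 and 13.95 in wild-type stroma and 12.71, 12.88, 13.14 and 13.41 in Crebbp+/- stroma (log2 fold change -0.97, standard error 0.23, adjusted p = 0.0293 by limma), with no overlap. Lrp1, the large endocytic receptor for lipoprotein remnants, and Acsl3, which activates fatty acids, passed only with the block (-0.65 and -0.73). Of 14 adipocyte genes Angptl4 rose and Cd36 fell without the block. Adipoq, Pparg, Lpl and Fabp4 did not pass in either fit (-0.40, 0.65, 0.21 and 0.53).

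Other metabolic genes gave few calls. Upp1, the uridine phosphorylase, rose 4.86-fold (log2 fold change 2.28, standard error 0.42, adjusted p = 0.0135 by limma), from wild-type levels of 3.99 to 5.56 that lie near the background. Aldoc, an aldolase of glycolysis, and the glucose transporter Slc2a3 fell only with the block (-1.98 and -0.88). Of 29 detoxification and redox enzymes 0 passed without it by limma, 8 had an unadjusted p under 0.05, and 2 rose and 5 fell with it, among the latter Gstm1 (-0.69) and Aldh1a1 (-1.29).

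Of 61 solute carriers, ABC transporters and related proteins, 2 rose and 1, Aqp1, fell without the block, and 7 rose and 11 fell with it. Of all genes, 5.22% rose and 1.42% fell without the block and 19.0% and 9.47% with it. The share of the list that rose was under that of all genes in both fits. The share that fell was near that of all genes without the block and above it with the block. Slc1a6, a glutamate transporter, read 7.66, 7.22, 7.66 and 7.03 in wild-type stroma and 9.105, 9.202, 8.76 and 8.695 in Crebbp+/- stroma (log2 fold change 1.55, standard error 0.38, adjusted p = 0.0331 by limma), and Slc12a2, the sodium, potassium and chloride cotransporter, rose by 1.03. Of 10 genes in the ion channel list the mechanosensitive channel Trpv4 fell with the block (-0.92) and the chloride channel protein Clic4 rose (0.71). P2ry14, which is a G protein receptor, was also caught by that list and rose with the block (0.89). Among regulators of small GTPases Rasgrp3, an exchange factor for Ras, rose (1.08) and Rassf2, a Ras-binding growth suppressor, fell (-1.16).

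On all 12 arrays, Notch and TGF-beta genes passed only with the block. Without it 0 of 7 and 0 of 19 passed by limma, and 4 and 5 had an unadjusted p under 0.05. When Crebbp+/- 4 was left out, 3 and 2 passed without the block, and without Ep300+/- 3, 0 and 1 did. Of the 7 in the Notch list 4 rose with it, among them Nrarp, a feedback inhibitor, which read 5.99, 4.55, 4.55 and 4.72 in wild-type stroma and 7.86, 7.58, 8.32 and 4.86 in Crebbp+/- stroma, so that Crebbp+/- 4 lay with the wild-type arrays. Dtx3l was caught by its name and is also an interferon-induced partner of Parp9. Of the 19 TGF-beta and BMP genes 5 rose with the block and 0 fell, among them Smad1 (0.96), Inhbb (0.95) and Eng (0.76).

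Of 26 contractile and cytoskeletal genes, 1 rose and 0 fell without the block, and 5 rose and 5 fell with it. The shares that rose were near the 5.22% and 19.0% of all genes, and 1.42% and 9.47% of all genes fell. Myh10, a nonmuscle myosin, read 8.92, 9.12, 9.01 and 9.41 in wild-type stroma and 10.01, 10.24, 10.02 and 9.902 in Crebbp+/- stroma (log2 fold change 0.93, standard error 0.23, adjusted p = 0.0338 by limma) with no overlap, and the actin-associated Pdlim5 and Pdlim1 rose only with the block (1.02 and 0.68). Other probe sets of Pdlim5 ran from -0.03, which passed in neither fit, to 1.41, which passed in both. Among those that fell with the block were 3 genes of striated muscle. Myh1, a fast skeletal myosin, read 5.16, 7.05, 9.02 and 8.99 in wild-type stroma and 2.796, 6.32, 2.36 and 5.02 in Crebbp+/- stroma (log2 fold change -3.43, adjusted p = 0.0644 by limma without and 0.032 with the block), and Tnnt2 and Ttn had log2 fold changes of -2.18 and -2.14. For these genes wild-type 1 and 2 lay below wild-type 3 and 4, and the groups overlapped. A further probe set of Tnnt2 (-1.68) passed in neither fit.

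Blood cell genes were few in the table and changed in both directions. Of 16 macrophage genes Cd163, the haemoglobin scavenger receptor, rose without the block, with 13.04, 12.85, 12.83 and 13.61 in wild-type stroma and 14.38, 14.18, 14.28 and 14.22 in Crebbp+/- stroma (log2 fold change 1.18, standard error 0.26, adjusted p = 0.0228 by limma). That 1 of 16 is near the 5.22% of all genes that rose without the block. With the block Fcgr1 and Cybb also rose (0.56 and 0.96) and Gpnmb fell (-0.81), where 19.0% of all genes rose and 9.47% fell. The macrophage list mean was -0.05 to 0.62 on the Crebbp+/- and -0.22 to 0.24 on the wild-type arrays, and its part in the interferon genes was not tested. Ms4a4c, a tetraspan membrane protein of myeloid cells, read 8.29, 8.88, 8.38 and 8.06 in wild-type stroma and 11.39, 11.09, 10.98 and 10.74 in Crebbp+/- stroma (log2 fold change 2.64, standard error 0.403, adjusted p = 0.0105 by limma). Ms4a8a rose by 2.799, with Crebbp+/- 4 at 5.41 below wild-type 1 at 5.45, while Ms4a7 fell with the block (-0.77). Both measured Gimap GTPases, Gimap4 and Gimap6, rose (2.86 and 2.08), each with overlap between wild-type 1 and Crebbp+/- 4. Igkv8-30, an immunoglobulin kappa segment, read 4.598, 4.301, 4.39 and 4.005 in wild-type stroma and 5.34, 7.24, 8.36 and 7.13 in Crebbp+/- stroma (log2 fold change 2.69, standard error 0.54, adjusted p = 0.0184 by limma), with Crebbp+/- 1 the lowest heterozygous array. Its family is near-identical in sequence, so the probe set may read other segments.

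**Figure D5:**
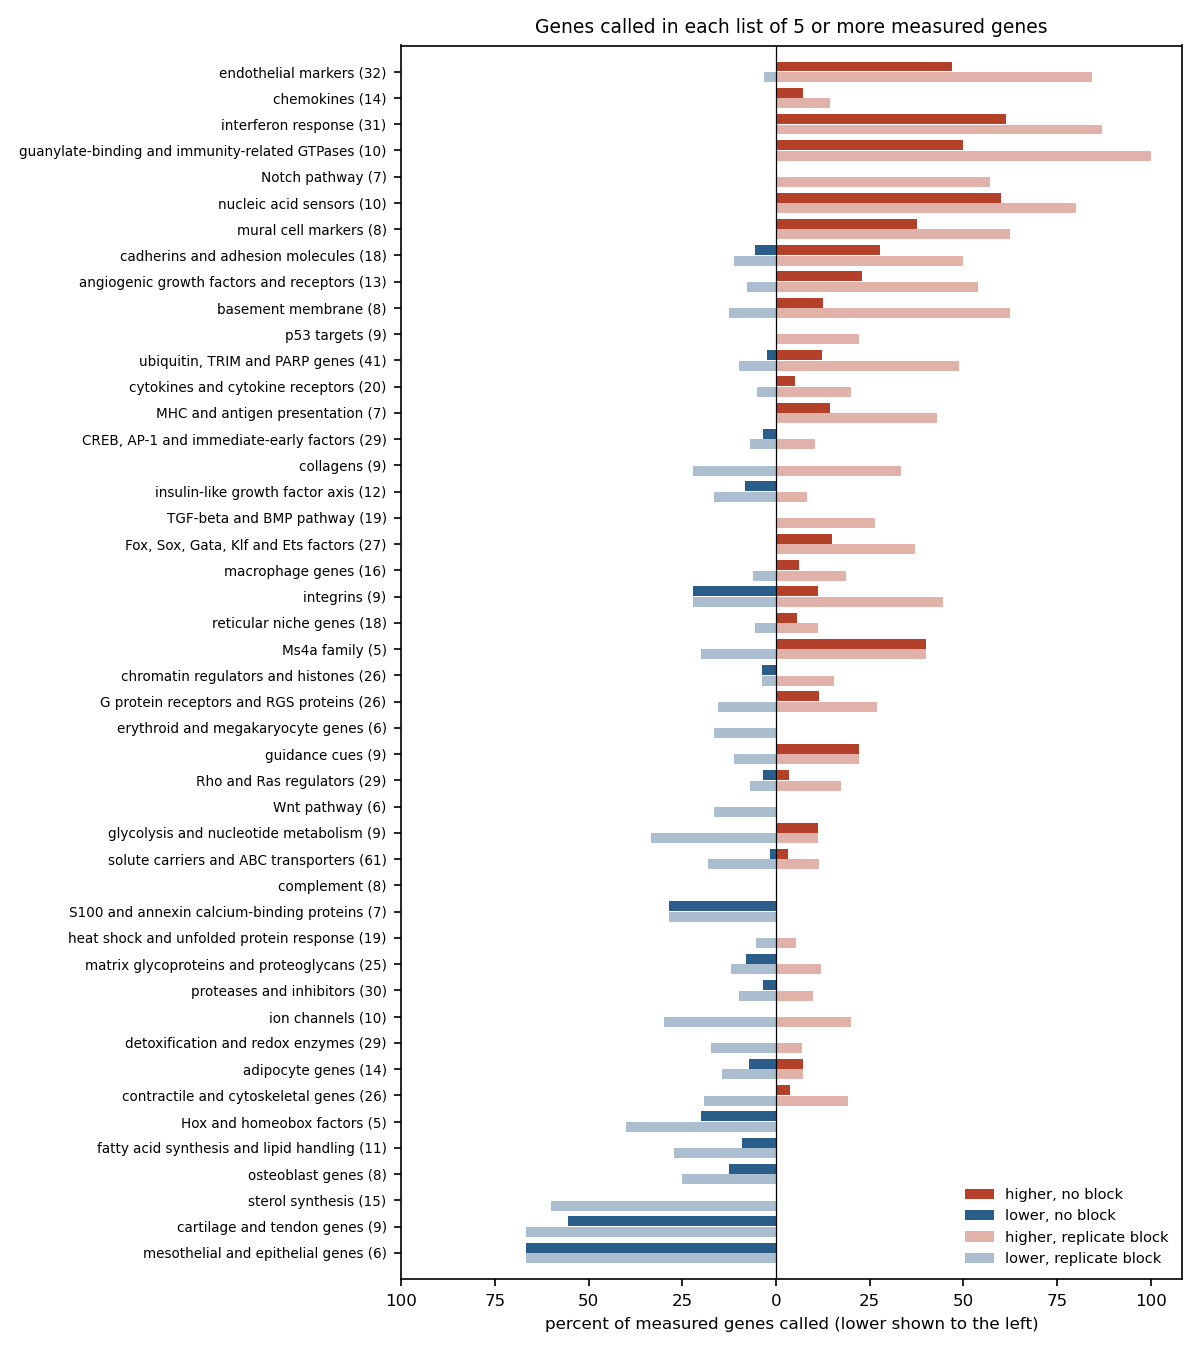
Bars give, for each list of 5 or more measured genes (number in brackets), the percent of its genes that rose (right, red) or fell (left, blue) at a limma adjusted p under 0.05, dark without and pale with the replicate block. Lists are ordered by median log2 fold change, from endothelial markers (1.78) down to mesothelial and epithelial genes (-1.93).

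Of the 131 genes that passed without the block, 39 stood in none of the 56 lists. Mest, an imprinted gene of mesoderm expressed from the paternal copy, read 7.41, 6.52, 5.89 and 6.29 in wild-type stroma and 9.22, 8.92, 8.71 and 8.05 in Crebbp+/- stroma (log2 fold change 2.198, standard error 0.398, adjusted p = 0.0133 by limma). Nav1, a microtubule-guiding protein, read 8.23, 8.02, 7.85 and 8.03 in wild-type stroma and 7.14, 6.94, 6.61 and 6.78 in Crebbp+/- stroma (log2 fold change -1.17, standard error 0.24, adjusted p = 0.0184 by limma), with the groups 0.72 apart. Hpgd, which inactivates prostaglandins, fell 2.10-fold (log2 fold change -1.07, standard error 0.27, adjusted p = 0.0359 by limma), and Crebbp+/- 4 was its lowest array. Stk17b, an apoptosis-linked kinase, Tent5b, a poly(A) polymerase of the TENT5 family, Nbl1, a BMP antagonist, Pik3cg, a PI3-kinase subunit of leukocytes, and Cd200r4, a receptor of myeloid cells, fell by 1.29, 0.999, 0.97, 0.93 and 0.90 on the log2 scale.

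Further genes of this kind were chosen after their values were seen. The vitamin D receptor Vdr read 7.50, 7.69, 7.88 and 7.45 in wild-type and 8.90, 9.06, 8.92 and 8.88 in Crebbp+/- stroma (log2 fold change 1.31, limma adjusted p = 0.0334). Its heterozygous arrays lay within 0.17 of each other, Crebbp+/- 4 included. Nox4, an NADPH oxidase that makes hydrogen peroxide, rose by 1.32 and by 1.65 on its 2 probe sets. Tfpi, which inhibits the tissue factor pathway of coagulation, rose by 1.01 and 1.13 on its 2 probe sets. The lysosomal enzymes Galc and Man2b1 fell by 0.88 and 0.86 on the log2 scale on their probe sets of highest mean, while their second probe sets did not pass (-0.15 and -0.63). Gzme, a granzyme, rose by 1.61, with Crebbp+/- 4 the highest array at 10.13. Adar, the adenosine deaminase that edits double-stranded RNA, rose by 1.13, from wild-type arrays between 7.03 and 7.12.

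Crebbp+/- stroma was also tested against Ep300+/- stroma, in which p300 is the coactivator reduced. In that comparison 103 of 1974 genes (5.22%) were higher and 37 (1.87%) lower in Crebbp+/- stroma. It shares the Crebbp+/- arrays with the comparison against wild type, so its values stand beside the others and are no second test of them. Comp, S100b, Itga10 and Smoc2 differed from Ep300+/- stroma by -2.45, -1.56, -2.02 and -1.90, each past the test. Of the interferon list 11 of 31 were higher than in Ep300+/- stroma, of the endothelial list 20 of 32, of the cartilage list 5 of 9 were lower, and of the mesothelial list 4 of 6 were lower. Other genes that changed against wild type did not pass against Ep300+/- stroma, among them Cd163 (0.34, limma adjusted p = 0.471), Cd36 (-0.28, 0.515), Klf7 (0.22, 0.679), Stk17b (-0.43, 0.459) and Nav1 (-0.46, 0.262). These values do not show that the heterozygotes were alike in those genes.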

How the data were processed

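RNA of 12 stroma layers was measured on Affymetrix mouse arrays, and the authors deposited log2 values made with GCRMA (background from probe sequence, normalization, summary per probe set), per the submitters' processing notes, which give no version. Of 3127 probe sets 18 were controls and 3109 were tested. As read from the values, no tested probe set had an interquartile range under 0.5001 or fell under 6.6439 on its third-highest array, so a gene left out of the table was not analysed here. Of the arrays compared, some probe sets passed that level only on Crebbp+/- arrays, among them those of Igkv8-30, Oasl1 and Upp1. The same held for Ccl8, Ifi213, Erg, Myct1, Gimap6, Ms4a8a, Gbp8, Rgs4, Itga3, Trim25 and Sdcbp2. Among these arrays their place in the table rested on that group being high, so their calls are not independent of it. The number of arrays limits the precision.

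Symbols came from the platform annotation: 2486 probe sets had 1 symbol, 176 several and 447 none, and only the first kind was named (1974 genes, 388 with several probe sets, each taken by that of highest mean). By gene ID, 2482 probe sets matched the GRCm38.p6 table, and RefSeq promoters of that build were also matched by gene ID.

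The test was limma 3.58.1 (R 4.3.3) on the deposited values, 3 genotype means over 12 arrays and no covariate, two-sided, with Benjamini-Hochberg adjustment over 3109 probe sets. It was run on simulated data with planted changes and independent noise. That noise held nothing shared by same-numbered arrays or between probe sets. The simulation therefore cannot check the block or the counts of calls under such sharing. Replicate numbers recur between genotypes without a stated meaning. Deviations from the group means correlated from 0.448 to 0.603 between same-numbered wild-type and Crebbp+/- arrays, and from -0.571 to 0.587 between others (0.587 for wild-type 1 and Crebbp+/- 2). Each same-numbered pair being above 0.1, the numbers were taken as pairs. Some arrays of unlike number also passed 0.1, such as wild-type 2 with Crebbp+/- 1 (0.207) and Crebbp+/- 4 (0.111). That bound therefore does not single out same-numbered arrays. The pairing was also read from the values that the block is fitted to, a limit on each call made only with it. The fit with the number as a fixed block stands beside the fit without it. As the labels do not say that arrays came from separate mice, p-values measure the spread between these arrays.

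The comparison and the 56 gene lists, which overlap, were chosen with earlier results of these data known, so their counts are descriptions. Named were Crebbp, 25 called genes from each end of the fold changes, the 10 highest and 10 lowest called only with the block, up to 4 genes of smallest p per list with a call, genes called in every fit that left out 1 array, and the measured sex-linked transcripts. The list part was narrowed, after values were seen, to genes that passed in either fit. Alternatives were quantile normalization, median centring, a mean of at least 6, trended robust eBayes, the 8 arrays alone, array weights, a 1.5-fold minimum, a covariate for low Eif2s3y, and leaving out arrays.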

Additional observations from a re-analysis of the deposited data

Results flagged for a closer look

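In 35 of 356 groups of 4 arrays, over the 178 named genes, 1 array lay far from the other 3 by Dixon's ratio (critical value 0.829). Chance flags about 1 in 20 groups, and the genes are not independent. Of the 35, 21 concerned Crebbp+/- 4, 11 wild-type 1 and 3 wild-type 4. No explanation was tested.

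Crebbp+/- 4 was low for vessel genes that were higher on the other 3 Crebbp+/- arrays. It read 4.91 for Erg, 9.04 for Cdh5, 7.28 for Robo4, 6.22 for Cldn5, 5.28 for Sox18, 4.35 for Gpihbp1, 6.41 for Myct1, 7.13 for Ephb4, 11.35 for Adgrf5, 6.58 for Rapgef5 and 11.69 for Rgs5. It was also low for Ms4a8a at 5.41, Slfn8 at 8.71, Trim25 at 5.97, Cyp4b1 at 4.77, Igfbp3 at 10.12 and Xist at 10.35. On the same array genes that were lower in Crebbp+/- stroma were high, with Lrrn4cl at 6.62, Nbl1 at 8.06, Prkg2 at 6.33 and Atf5 at 10.79. In each case this array lay on the wild-type side of the other heterozygous arrays.

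Wild-type 1 was high, on the Crebbp+/- side, for the vessel genes Tie1 at 7.10, Cdh5 at 8.91, Gpihbp1 at 7.95, Sox18 at 7.20, Apln at 10.05, Bcl6b at 7.52 and Nrarp at 5.99. It was also high for Ccl8 at 6.42, Oasl1 at 4.67 and Gimap4 at 6.75, and low for Lrp1 at 13.22. For Cdh5, Gpihbp1 and Sox18 both arrays stood apart. Wild-type 4 stood apart for Asb4 at 7.86 (high), Gbp6 at 3.83 (low) and Slfn5 at 8.15 (low).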

How the results depend on the processing

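The 192 calls moved to 812 with the replicate block, 939 with the block over the 8 arrays alone, and 1267 with array weights, whose gene-by-gene estimate was chosen after the default did not converge. They fell to 3 with a covariate for low Eif2s3y, to 4 without the Crebbp+/- arrays low in it, and to 6 with that covariate and the block together, an alternative chosen after seeing the data. Separation of the 8 arrays, with no test, counted 586. Leaving out 1 array gave from 5 to 383 calls, and with the block, leaving out 1 replicate number gave from 0 to 843. The other settings (178 with a mean of at least 6, 152 with the 8 arrays alone, 200 with trended robust eBayes, 192 with quantile normalization, 197 with median centring, 192 with a 1.5-fold minimum) stayed within 1.5 times. The log2 fold change of Crebbp missed the threshold at -0.83 with the Eif2s3y covariate and without the arrays low in it (adjusted p = 0.180 and 0.246 by limma), at -0.85 with the covariate and block (0.0648), and at -0.78 over the 8 arrays alone (0.0607). Leaving out 1 array it ran from -0.82 to -0.75. Within lists the counts could move further than the totals. Of the guanylate-binding and immunity-related GTPases, 1 rose after quantile normalization and 1 after median centring, against 5 in the main fit. No named gene changed sign in a setting run. Of the 178 named genes, 90 passed only with the block and so had no call without it to lose. Among the named genes that had such a call, 83 lost it without the arrays low in Eif2s3y and 84 with the covariate. Over all 1974 genes, 1 was called higher and 2 lower without those arrays, and 0 higher and 2 lower with the covariate. The block ended no call. Cause was not tested. Low signal limits 15 of the 131 called genes, whose lower group had an array under 5.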

Other observations

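Crebbp lies on chromosome 16, where 70 genes were measured. Without the block 3 of them rose and 2 fell, Crebbp included, and with it 20 rose and 6 fell, with a median log2 fold change of 0.37 against 0.28 over all genes. Among all genes 5.22% rose and 1.42% fell without the block, and 19.0% rose and 9.47% fell with it. The nearest measured genes in the RefSeq gene order of GRCm38.p6, Nlrc3, an inhibitory member of the NLR family, and Glis2, a zinc finger factor, were chosen for their place. Nlrc3 read 6.87, 7.21, 7.81 and 7.73 in wild-type stroma and 5.41, 6.32, 6.4996 and 7.25 in Crebbp+/- stroma. Its log2 fold change was -1.03 (adjusted p = 0.115 by limma without and 0.0154 with the block), and Crebbp+/- 4 overlapped wild-type 1 and 2. Glis2 had a log2 fold change of -0.77 (adjusted p = 0.0996 without and 0.0304 with the block).

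A probe set with no symbol in the annotation, 1424631_a_at, had the second smallest p of all. It lay between 2.72 and 2.87 on the wild-type arrays and at 6.42, 7.09, 8.83 and 7.65 on Crebbp+/- 1 to 4 (adjusted p = 0.00155 by limma). It was called in each fit that left out 1 array. As its wild-type level is at the floor of the table, the size of the change is uncertain. Each probe set in the table reaches 6.6439 on its third-highest array. Of the arrays compared, this one did so only on Crebbp+/- 2, 3 and 4. Its place in the table thus rested on that group being high, and its small p and repeated calls are no separate support.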
